A study of Mus musculus with 2 samples.

Results

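Retinoid synthesis and binding genes are described here in mouse colon cells as 9 genes chosen by symbol, of the 31053 genes in the deposited matrices. They are Rbp4, Rdh10, Aldh1a1, Aldh1a2, Aldh1a3, Dhrs3, Crabp1, Crabp2 and Rara, and all 9 had at least 1 unique molecular identifier (UMI, a count of RNA molecules) in a kept cell. Colon cells of wild-type C57BL/6 mice given Δ9-tetrahydrocannabinol (THC, a plant cannabinoid) at 10 mg/kg made up 1 library, and those of wild-type C57BL/6 mice given vehicle the other. The cells came from colon after EDTA and then collagenase D, DNAse and Dispase digestion, with the lamina propria enriched on Percoll, and were sequenced with the 10x Genomics 5' kit. The labels used here state neither the animals per library and their sex nor how often THC was given. Each group had 1 library, so no difference between THC and vehicle has a replicate check and none was tested.

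Vitamin A reaches cells as retinol, much of it on the plasma carrier RBP4. Inside the cell retinol is oxidised to retinaldehyde, mainly by RDH10, and retinaldehyde is oxidised to retinoic acid by the ALDH1A enzymes, while DHRS3 turns retinaldehyde back into retinol. Retinoic acid is bound in the cytoplasm by the CRABP proteins and acts through nuclear receptors such as RARα, and in the gut it is known for imprinting gut homing and for shaping mucosal dendritic cells and lymphocytes.

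The THC library kept 395 cells (median 8529 UMIs) and the vehicle library 628 cells (median 7101.5 UMIs), and no kept cell barcode was in both libraries. Levels are UMIs of a gene per 1000000 UMIs summed over a class of cells (CPM), with exact Poisson 95% intervals in parentheses. These intervals cover counting error only. Classes carry the name of the cell type whose markers they held. Fibroblast-like cells were 93 in the THC library and 156 in the vehicle library, in lamina propria-like (59 and 93), subepithelial or telocyte-like (13 and 20) and adventitial-like (21 and 43) subsets, and each library showed all 6 lamina propria, 9 of 10 telocyte and all 10 adventitial markers in its subset. The mitochondrial limit removed 232 THC and 281 vehicle barcodes. The deposited THC matrix also held 105817 barcodes of 1 to 100 UMIs, which give the make-up of RNA outside cells in that library. The lowest barcode of the vehicle matrix had 502 UMIs, so that matrix had been filtered before deposit and gives no such share.

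Of the 7 members with enough UMIs to rank, 5 had their highest class CPM in fibroblast-like cells when the libraries were pooled, which was so for 14.8% of all genes measured over the same 7 classes. The count was 5 of 7 in the THC library, where the share of all genes was 14.9%, and 4 of 7 in the vehicle library, where it was 13.5%. With cells thinned to 1000 UMIs the pooled count was 3. Members with under 20 UMIs after thinning were not counted, so the 3 does not show that others were highest elsewhere. The members highest in fibroblast-like cells without thinning were Aldh1a1, Aldh1a2, Aldh1a3, Rdh10 and, in the pooled and THC sums, Rbp4. The pooled Rbp4 levels of fibroblast-like and smooth muscle-like cells were close, at 189 CPM and 183 CPM. The 7 classes were fibroblast-like, smooth muscle-like, epithelial-like, goblet-like, B-like, T-like and myeloid-like cells, those with 20 or more cells per library. Among them Rara was highest in myeloid-like cells (51.3 CPM, 10 UMIs) in the THC library, with B-like cells next (41.3 CPM). In the vehicle library it was highest in B-like cells (53.3 CPM), with myeloid-like cells next (29.7 CPM, 11 UMIs). Dhrs3 was highest in T-like cells (61.7 CPM) in the THC library, with smooth muscle-like cells next (54.4 CPM). In the vehicle library it was highest in myeloid-like cells (132 CPM), with fibroblast-like cells next (75.4 CPM). No member reached 20 UMIs over both libraries in B-like or T-like cells. The difference in highest class between the libraries was not tested. Crabp1 and Crabp2 had too few UMIs to rank.

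**Figure D1:**
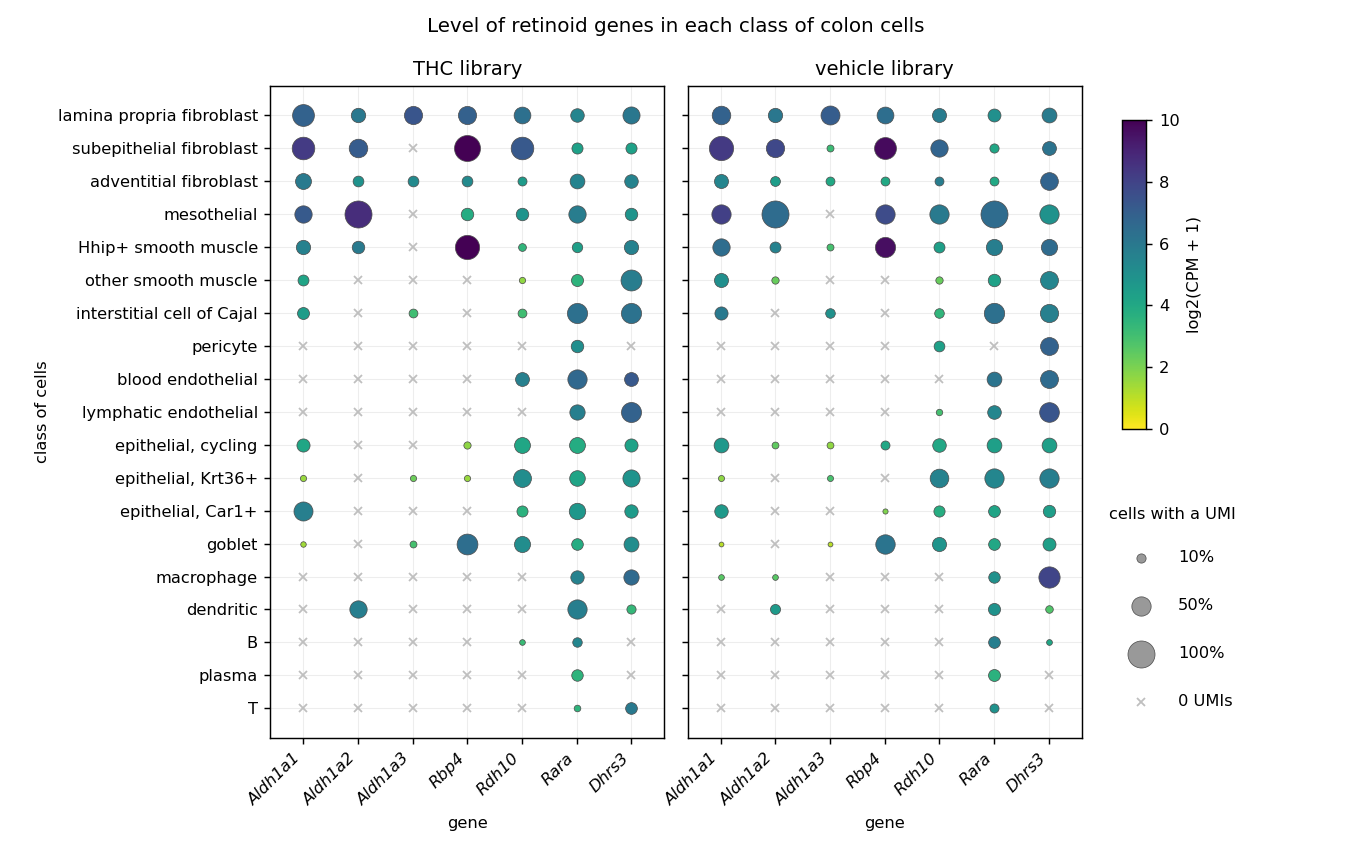
Level of 7 members in each class of cells, the THC library in the left panel and the vehicle library in the right panel; colour gives log2(CPM + 1), dot area the share of cells with a UMI and a cross a class with 0 UMIs. The Aldh1a genes, Rbp4 and Rdh10 are strongest in the stromal rows at the top of both panels, with Rbp4 and Rdh10 also in goblet-like cells and Aldh1a1 and Rdh10 in epithelial-like cells, while Rara and Dhrs3 spread over most rows.

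Rbp4, the retinol carrier, was the member with the most UMIs, 327 in THC cells and 373 in vehicle cells. In telocyte-like fibroblasts it stood at 1057 CPM (871 to 1270; 12 of 13 cells) in the THC library and 864 CPM (709 to 1043; 13 of 20 cells) in the vehicle library. Lamina propria-like fibroblasts had 121.5 CPM and adventitial-like fibroblasts 37.5 CPM in the THC library, against 84.5 CPM and 15.2 CPM in the vehicle library. Within the fibroblasts the telocyte-like subset was therefore the high one in both libraries, with intervals that did not reach those of the other subsets. The richest telocyte-like cell held 39.8% of their Rbp4 UMIs in the THC library and 30.6% in the vehicle library.

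A second site of Rbp4 lay among the smooth muscle-like cells, and there all of it was in 1 cluster. That cluster was led by Hhip, which encodes a Hedgehog-binding protein, and Rbp4 was at 1013 CPM (826 to 1230; 12 of 15 cells) in its THC cells and 801 CPM (664 to 958; 11 of 20 cells) in its vehicle cells. The remaining smooth muscle-like cluster, led by Actg2 and Des, had 0 Rbp4 UMIs in 27 THC and 35 vehicle cells. The intervals there reached up to 7.87 CPM and 7.49 CPM. The Hhip-led cluster held fibroblast markers at a summed 5056 CPM in THC and 5309 CPM in vehicle cells, above the 1216 CPM and 933 CPM of the Actg2-led cluster. Its 8 smooth muscle markers were all present, at a summed 46586 CPM in THC and 48064 CPM in vehicle cells, against 124085 CPM and 95098 CPM in the Actg2-led cluster.

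Rbp4 was also present in goblet-like cells, at 84.6 CPM (62.8 to 111; 24 of 41 cells) in the THC library and 70.4 CPM (54.2 to 89.9; 35 of 69 cells) in the vehicle library. Other epithelial-like cells had 2 UMIs in 85 THC cells and 9 in 102 vehicle cells, at a higher median depth (20083 and 16141 UMIs per cell, against 12807 and 12286 in goblet-like cells). B-like, T-like, macrophage-like and lymphatic endothelial-like cells had 0 Rbp4 UMIs in both libraries. RNA outside cells in the THC library held Rbp4 at 25.7 CPM of that RNA. The goblet-like level of Rbp4 was thus set apart from that of the deeper epithelial-like cells in each library.

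Rdh10, the retinol dehydrogenase that makes retinaldehyde, had its highest fibroblast level in the telocyte-like subset too. Telocyte-like fibroblasts had 149.6 CPM (85.5 to 243; 9 of 13 cells) in the THC library and 112 CPM (61.2 to 188; 8 of 20 cells) in the vehicle library. Lamina propria-like fibroblasts had 81.0 CPM (56.7 to 112) in the THC library and 56.3 CPM (39.9 to 77.3) in the vehicle library. The intervals of these subsets overlapped within each library, and the difference between the subsets was not tested.

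Outside fibroblasts, Rdh10 stood at 33.8 CPM in goblet-like and 19.5 CPM in other epithelial-like THC cells, and at 27.5 CPM and 22.7 CPM in the same classes of the vehicle library. Among the epithelial-like clusters, the one led by Krt36 and Aqp4 had 34.2 CPM in THC and 46.3 CPM in vehicle cells, and the one led by Car1 had 11.1 CPM and 12.5 CPM. RNA outside cells held Rdh10 at 23.2 CPM in the THC library. B-like cells, which served as a class with little of the gene, had 1 Rdh10 UMI in 37 THC cells and 0 in 69 vehicle cells, at shallower medians of 3106 and 3133 UMIs per cell.

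The ALDH1A enzymes make retinoic acid from retinaldehyde, and each of the 3 genes had its own distribution over the stroma. The sequences around the annotated starts of Aldh1a1 and Aldh1a2 are shown because these genes were both highest in telocyte-like or mesothelial-like cells and differ in base make-up. Each runs from 250 bases before to 50 bases after the start in RefSeq (GRCm38.p6). Aldh1a1 has 2 windows in the table, and the one printed is that farthest along the gene, chr19:20601718-20602017 on the plus strand, with 1 CG dinucleotide. The other begins at 20492333 and has 3 CG dinucleotides. Aldh1a2 has 1 window, at chr9:71215539-71215838 on the plus strand, with 50 CG dinucleotides. The median was 7 over all windows of this length.
Aldh1a1: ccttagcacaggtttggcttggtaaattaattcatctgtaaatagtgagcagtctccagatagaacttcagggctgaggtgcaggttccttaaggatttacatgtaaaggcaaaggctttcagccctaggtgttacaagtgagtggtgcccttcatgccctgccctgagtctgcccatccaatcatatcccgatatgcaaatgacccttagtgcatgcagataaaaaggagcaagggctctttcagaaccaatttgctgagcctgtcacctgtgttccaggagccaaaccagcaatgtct
Aldh1a2: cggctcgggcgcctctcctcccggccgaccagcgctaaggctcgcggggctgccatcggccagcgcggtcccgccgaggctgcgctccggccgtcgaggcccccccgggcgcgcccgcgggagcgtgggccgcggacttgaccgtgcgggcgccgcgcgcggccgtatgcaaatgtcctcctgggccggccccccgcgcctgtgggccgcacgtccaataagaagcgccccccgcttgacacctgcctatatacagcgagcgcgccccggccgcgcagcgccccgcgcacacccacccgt

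Aldh1a1 was at 309 CPM (212 to 433; 9 of 13 cells) in telocyte-like fibroblasts of the THC library and 312 CPM (222 to 427; 16 of 20 cells) in those of the vehicle library. Lamina propria-like fibroblasts had 119 CPM (89.3 to 156) in the THC library and 119 CPM (94.0 to 148) in the vehicle library, and adventitial-like fibroblasts had 60.0 CPM and 42.6 CPM. The order of the subsets was the same in both libraries, and the telocyte-like interval lay above the others in each. Mesothelial-like cells, which split from the fibroblasts on Msln and Upk3b, had 11 Aldh1a1 UMIs in 5 THC cells and 9 in 2 vehicle cells, and 9 of those UMIs came from 1 cell in each library.

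Aldh1a1 was the only Aldh1a gene with more than a few UMIs in epithelial-like cells. It had 26.6 CPM (19.4 to 35.6; 24 of 85 cells) in THC and 17.8 CPM (11.9 to 25.6; 19 of 102 cells) in vehicle epithelial-like cells. Goblet-like cells had 1.69 CPM (1 UMI in 41 cells) in the THC library and 1.10 CPM (1 UMI in 69 cells) in the vehicle library. RNA outside cells in the THC library held Aldh1a1 at 33.0 CPM, which is a share of that RNA and not the amount of it in a cell. Within the epithelial-like cells the Car1-led cluster had 37 UMIs in 39 THC cells (51.3 CPM) and 17 in 51 vehicle cells (23.6 CPM). A cluster led by cell cycle genes had 7 UMIs in THC (15.8 CPM) and 11 in vehicle cells (24.2 CPM), and the Krt36-led cluster had 1 UMI in each library. Most smooth muscle and fibroblast marker UMIs of vehicle epithelial-like cells lay in the cell cycle-led cluster, and their part in its Aldh1a1 count was not tested.

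Aldh1a2 was highest in mesothelial-like and telocyte-like cells. The 5 mesothelial-like THC cells held 31 UMIs (419 CPM, 284 to 594) and the 2 vehicle cells 3 UMIs (90.4 CPM, 18.6 to 264), and each of these cells had at least 1. In telocyte-like fibroblasts Aldh1a2 was at 140 CPM (78.5 to 231) in the THC library and 224 CPM (149 to 324) in the vehicle library. Lamina propria-like fibroblasts had 63.0 CPM and adventitial-like fibroblasts 30.01 CPM in the THC library, against 65.2 CPM and 21.3 CPM in the vehicle library. In mesothelial-like cells the level of Aldh1a2 rests on few cells, and 14 of 31 THC UMIs on 1 of them.

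Aldh1a2 was the Aldh1a gene with UMIs in dendritic-like cells. That cluster showed 8 of 9 dendritic markers in each library, at a summed 1008 CPM in THC and 1442 CPM in vehicle cells, and was led by Il1r2, Alox5ap and Il1b. It also held macrophage markers at a summed 3805 CPM in THC and 4470 CPM in vehicle cells, against 19692 CPM and 22513 CPM in macrophage-like cells. Aldh1a2 had 6 UMIs in 4 of 10 THC cells (54.0 CPM, 19.8 to 117) and 4 UMIs in 2 of 16 vehicle cells (22.9 CPM, 6.24 to 58.6). The intervals overlapped widely, and no ratio is given for a class with so few cells. Macrophage-like cells had 0 Aldh1a2 UMIs in 13 THC cells (0 to 44.0 CPM) and 1 UMI in 36 vehicle cells. RNA outside cells held Aldh1a2 at 1.22 CPM in the THC library.

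Aldh1a3 was nearly confined to lamina propria-like fibroblasts, which held 72 of its 84 UMIs in the THC library and 92 of its 107 UMIs in the vehicle library. Its level there was 162 CPM (127 to 204; 26 of 59 cells) in the THC library and 136 CPM (110 to 167; 45 of 93 cells) in the vehicle library. Telocyte-like fibroblasts had 0 UMIs in 13 THC cells (0 to 34.5 CPM) and 1 UMI in 20 vehicle cells, at 8.001 CPM. Adventitial-like fibroblasts had 5 UMIs in each library, at 37.5 CPM in THC and 15.2 CPM in vehicle cells. Aldh1a3 was therefore low in the subset in which Aldh1a1 was highest, in both libraries.

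**Figure D2:**
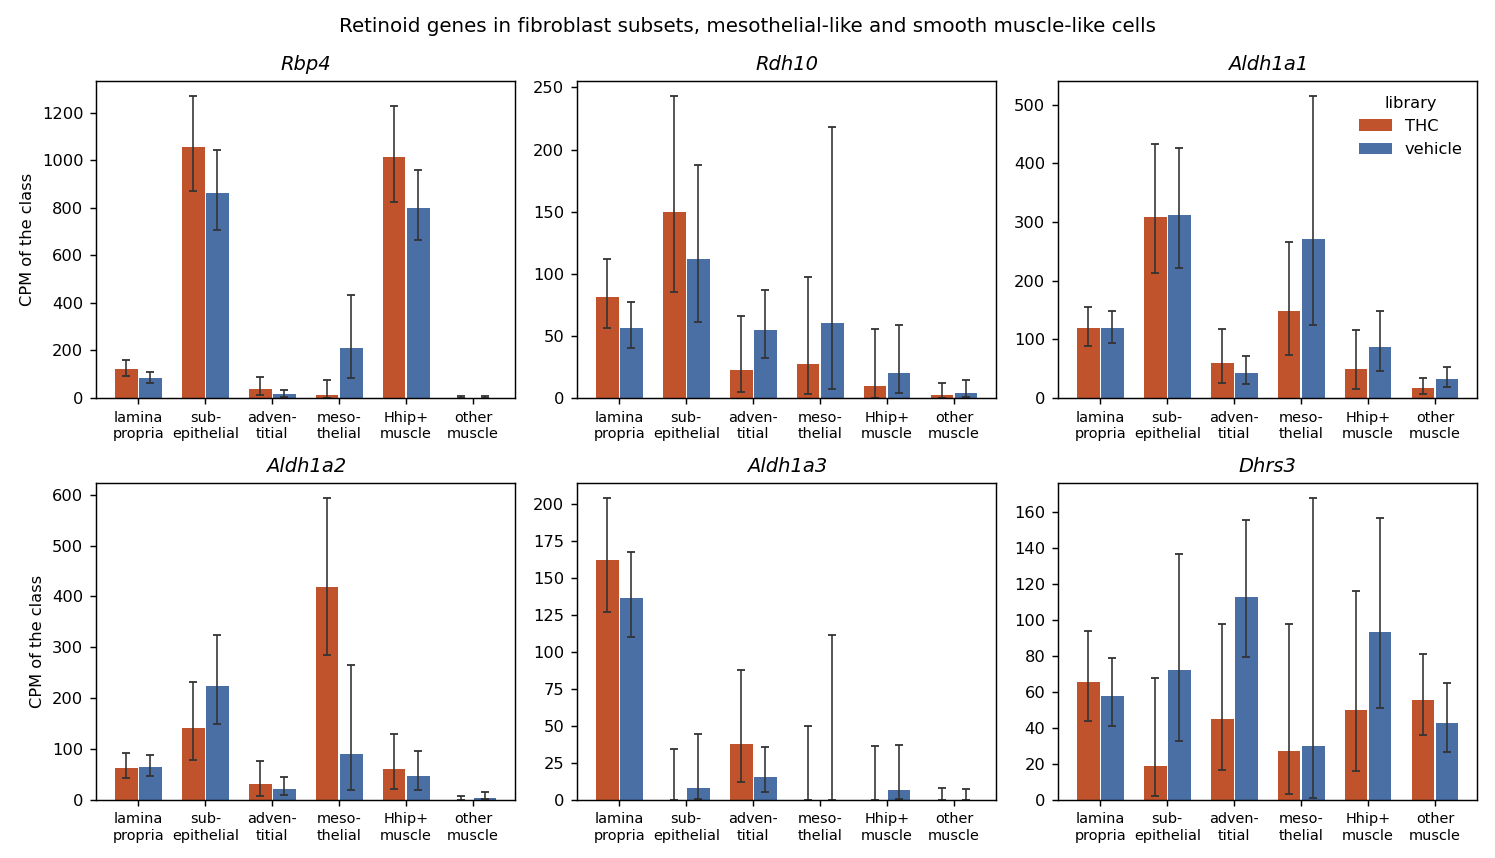
CPM of 6 members in fibroblast subsets, mesothelial-like cells and the Hhip-led and Actg2-led smooth muscle-like clusters, THC bars left of vehicle bars; error bars are exact Poisson 95% intervals from 1 library each. Rbp4 is high in telocyte-like (subepithelial) fibroblasts and Hhip-led muscle, Aldh1a3 in lamina propria-like fibroblasts and Aldh1a2 in the 5 THC mesothelial-like cells.

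Most lamina propria-like fibroblasts carried at least 1 Aldh1a gene, 48 of 59 (81.4%) in the THC library and 72 of 93 (77.4%) in the vehicle library. Telocyte-like fibroblasts did so in 10 of 13 THC and 16 of 20 vehicle cells, and adventitial-like fibroblasts in 8 of 21 THC and 16 of 43 vehicle cells. B-like cells had 0 UMIs of all 3 genes in both libraries. More than 1 of the 3 genes was found in 24 THC and 31 vehicle lamina propria-like cells. Of the lamina propria-like cells with an Rdh10 UMI, 20 of 22 in the THC library and 19 of 24 in the vehicle library also had an Aldh1a UMI. These counts depend on depth, since a cell with more UMIs has more chances to show each gene, and the median depth of the subset was 7797 UMIs in the THC library and 7101 in the vehicle library.

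The lamina propria-like fibroblasts were not uniform. A sub-cluster of 10 THC and 12 vehicle cells, led by Ces1d and Fibin, met 3 of the 6 lamina propria markers (Col15a1, Cygb and Ccl11). That was the fewest the naming rule allowed, and the other lamina propria-like sub-clusters met 5 or 6. The Ces1d-led sub-cluster had Aldh1a1 at 117 CPM in THC and 183 CPM in vehicle cells. Aldh1a2, Rbp4 and Rdh10 had 0 UMIs in its THC cells and 1 UMI each in its vehicle cells. Its Aldh1a3 level was 51.8 CPM in THC and 53.9 CPM in vehicle cells. In the other 3 lamina propria-like sub-clusters Aldh1a3 lay between 125 and 203 CPM in the THC library and between 122 and 181 CPM in the vehicle library. The sub-cluster led by Hcar2, Cxcl10 and Ptgs2 was the highest of them for Aldh1a3 and for Rdh10, with Rdh10 at 127 CPM in THC and 106 CPM in vehicle cells.

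Dhrs3, which turns retinaldehyde back into retinol and is itself known as a gene induced by retinoic acid, was widely spread. It had 166 UMIs in 110 of 395 THC cells and 282 UMIs in 170 of 628 vehicle cells. Lymphatic endothelial-like cells had 116 CPM (53.2 to 221; 7 of 13 cells) in the THC library and 164 CPM (105 to 244; 13 of 25 cells) in the vehicle library. Smooth muscle-like cells had 54.4 CPM in THC and 54.5 CPM in vehicle cells, and lamina propria-like fibroblasts 65.3 CPM and 57.8 CPM. In each of these classes the intervals of the THC and vehicle libraries overlapped.

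Macrophage-like cells were farther apart between the libraries, though their intervals also overlapped, and the 13 THC cells were too few for a ratio. Dhrs3 had 8 UMIs in 4 of 13 THC cells (95.5 CPM, 41.2 to 188) and 48 UMIs in 22 of 36 vehicle cells (245 CPM, 181 to 325), the highest class CPM of Dhrs3 in the vehicle library. Dendritic-like cells had 1 UMI in each library. The richest macrophage-like cell held 4 of the 8 UMIs in the THC library and 5 of the 48 in the vehicle library. Fibroblast markers were at 0 in THC macrophage-like cells and at a summed 1081 CPM in vehicle macrophage-like cells (9 of 10 markers), where 210 of 212 such UMIs came from 1 cell.

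**Figure D3:**
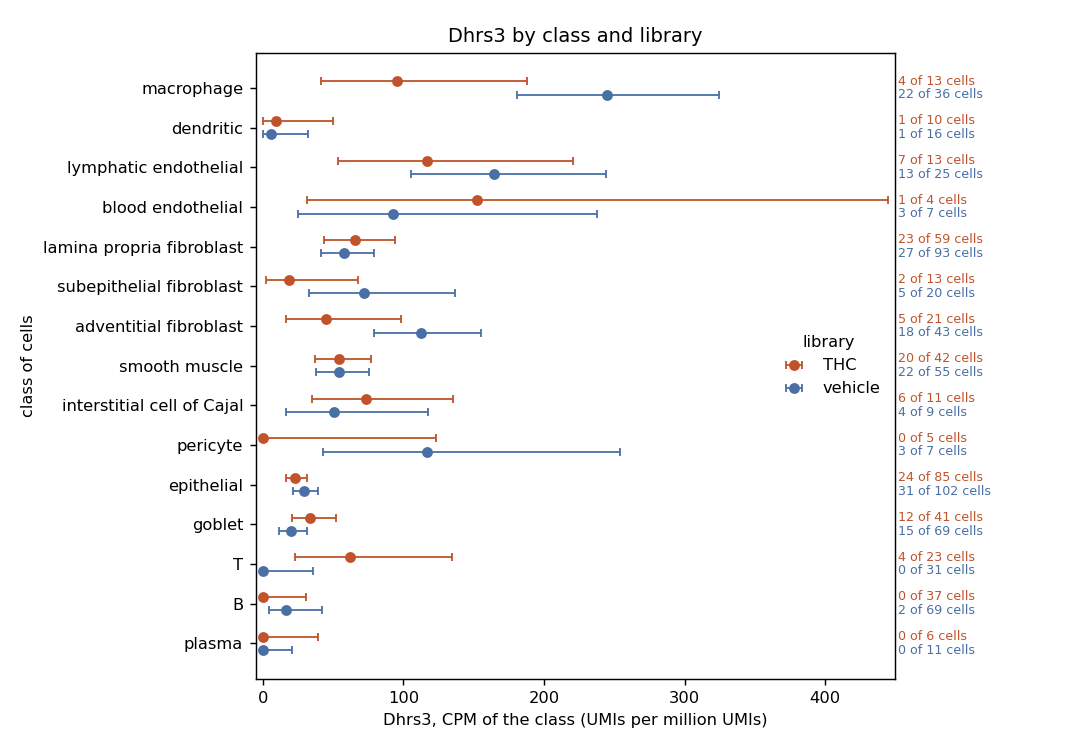
Dhrs3 CPM by class, THC above vehicle in each row, with exact Poisson 95% intervals from 1 library each and the number of cells with a UMI at the right. The macrophage-like rows are at 95.5 CPM in THC and 245 CPM in vehicle cells, and the adventitial-like rows at 45.01 CPM and 113 CPM.

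The cytoplasmic retinoic acid-binding genes were nearly undetected. Crabp1 had 4 UMIs in 1 THC cell and 1 UMI in 1 vehicle cell, and Crabp2 had 1 UMI in 1 cell of each library. All of these were lamina propria-like fibroblasts. At these counts nothing can be said of their distribution.

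Rara, the retinoic acid receptor RARα, was found in nearly every class at low counts, 114 UMIs in 94 THC cells and 152 UMIs in 127 vehicle cells. Cells like interstitial cells of Cajal had 80.7 CPM (40.3 to 144) in the THC library and 80.5 CPM (34.7 to 159) in the vehicle library. B-like cells had 41.3 CPM and lamina propria-like fibroblasts 42.8 CPM in the THC library, against 53.3 CPM and 31.1 CPM in the vehicle library. Epithelial-like cells were lower, at 19.5 CPM (13.4 to 27.4) in the THC library and 24.6 CPM (17.6 to 33.5) in the vehicle library, and the Cajal-like interval lay above theirs in each library. Classes next to each other in the order had overlapping intervals. RNA outside cells held it at 12.2 CPM in the THC library.

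Ratios of THC to vehicle were formed where a class had 20 or more cells per library and a gene 20 or more UMIs in it. In fibroblast-like cells 7 members qualified, and 0 of 7 were at least 2-fold apart, where 4.91% of 7996 genes were. Their median log2 ratio of CPM, THC over vehicle, was 0.37, against 0.02 over all genes measured. Rbp4 was the one with a counting interval that left out 0, at 0.74 (0.42 to 1.05), with 251 CPM in THC and 151 CPM in vehicle cells. That ratio was 0.28 with each cell thinned to 1000 UMIs. Telocyte-like cells, the subset richest in Rbp4, gave 106946 of the 684632 fibroblast-like UMIs in the THC library and 124990 of 1127964 in the vehicle library, and in lamina propria-like fibroblasts alone the Rbp4 ratio was 0.52 (-0.04 to 1.09). Smooth muscle markers in telocyte-like cells were at a summed 5246 CPM in THC and 2840 CPM in vehicle cells. The part of these in the Rbp4 ratio was not tested. Aldh1a1 was at 0.22 (-0.18 to 0.61), Aldh1a2 at -0.03 (-0.58 to 0.51), Aldh1a3 at 0.37 (-0.08 to 0.82), Rdh10 at 0.37 (-0.16 to 0.90), Rara at 0.67 (-0.15 to 1.48) and Dhrs3 at -0.48 (-1.08 to 0.09). The intervals of these other 6 members held 0.

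By subset, 0 of 7 members were 2-fold apart in lamina propria-like fibroblasts, where 5.45% of genes were. In adventitial-like fibroblasts 2 of 3 members were at least 2-fold lower in THC, where 7.7% of genes were lower and 10.7% apart in either direction. Dhrs3 had 6 UMIs (45.01 CPM) in THC and 37 UMIs (113 CPM) in vehicle cells there, a log2 ratio of -1.32 (-2.86 to -0.07). Rdh10 had 3 UMIs (22.5 CPM) in THC and 18 UMIs (54.8 CPM) in vehicle cells, a log2 ratio of -1.28 (-3.69 to 0.49), and 15 of the 18 came from 1 vehicle cell. Without the richest cell of each library the Rdh10 ratio was -0.18.

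In myeloid-like cells (macrophage-like and dendritic-like together) 1 of 2 members was at least 2-fold lower in THC, where 8.22% of genes were lower and 12.1% apart in either direction. It was Dhrs3, at 46.2 CPM in THC and 132 CPM in vehicle cells, a log2 ratio of -1.52 (-2.73 to -0.48). The ratio was -1.36 without the 2 vehicle cells that held fibroblast marker UMIs and -2.22 without the richest cell of each library. The Dhrs3 UMIs were almost all in macrophage-like cells, which were 13 of 23 THC and 36 of 52 vehicle myeloid-like cells. In macrophage-like cells without fibroblast marker UMIs, Dhrs3 was at 95.5 CPM in THC and 233 CPM in vehicle cells. The part of the myeloid mix in the ratio was not tested. Over all cells Dhrs3 was at -0.40 (-0.69 to -0.12), and 0 of 7 members were 2-fold apart, where 4.02% of genes were. Macrophage-like cells were 3.29% of the THC library and 5.73% of the vehicle library, and the part of this mix in the all-cell value was not tested.

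In smooth muscle-like cells 1 of 4 members was at least 2-fold lower in THC, where 4.46% of genes were lower and 5.97% apart in either direction. It was Rara, with 7 UMIs in THC and 17 in vehicle cells, at -1.11 (-2.62 to 0.24). Aldh1a1 was close to the fold there, with 13 UMIs in THC and 29 in vehicle cells, at -0.98 (-2.05 to 0.01), and Rbp4 was at -0.06 (-0.46 to 0.33). The ratios of smooth muscle-like cells sat below 0 more generally, with a median of -0.09 over all 6367 genes measured.

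In epithelial-like cells 0 of 4 members were 2-fold apart, where 4.39% of genes were, and in goblet-like cells 0 of 4, where 4.58% were. Within the epithelial-like cells, Aldh1a1 was at 1.12 (0.25 to 2.04) in the Car1-led cluster, the only 1 of 3 members at least 2-fold higher in THC there, where 2.88% of genes were higher and 6.02% apart in either direction. In the Krt36-led cluster Rara was the only 1 of 3 members at least 2-fold lower, at -1.29 (-2.62 to -0.08), where 2.67% of genes were lower and 5.51% apart in either direction. THC epithelial-like cells held smooth muscle markers at a summed 17.7 CPM, against 896 CPM in vehicle epithelial-like cells. In the Car1-led and Krt36-led clusters those markers stood at 18.0 CPM and 15.2 CPM in THC and 19.5 CPM and 19.8 CPM in vehicle cells. Fibroblast markers stood at 84.8 CPM in vehicle epithelial-like cells, with 5.56 CPM in the Car1-led and 0 CPM in the Krt36-led vehicle cells. The remaining cluster, led by cell cycle genes, thus held most of both. Their part in the vehicle Aldh1a1 and Rbp4 counts of epithelial-like cells was not tested.

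**Figure D4:**
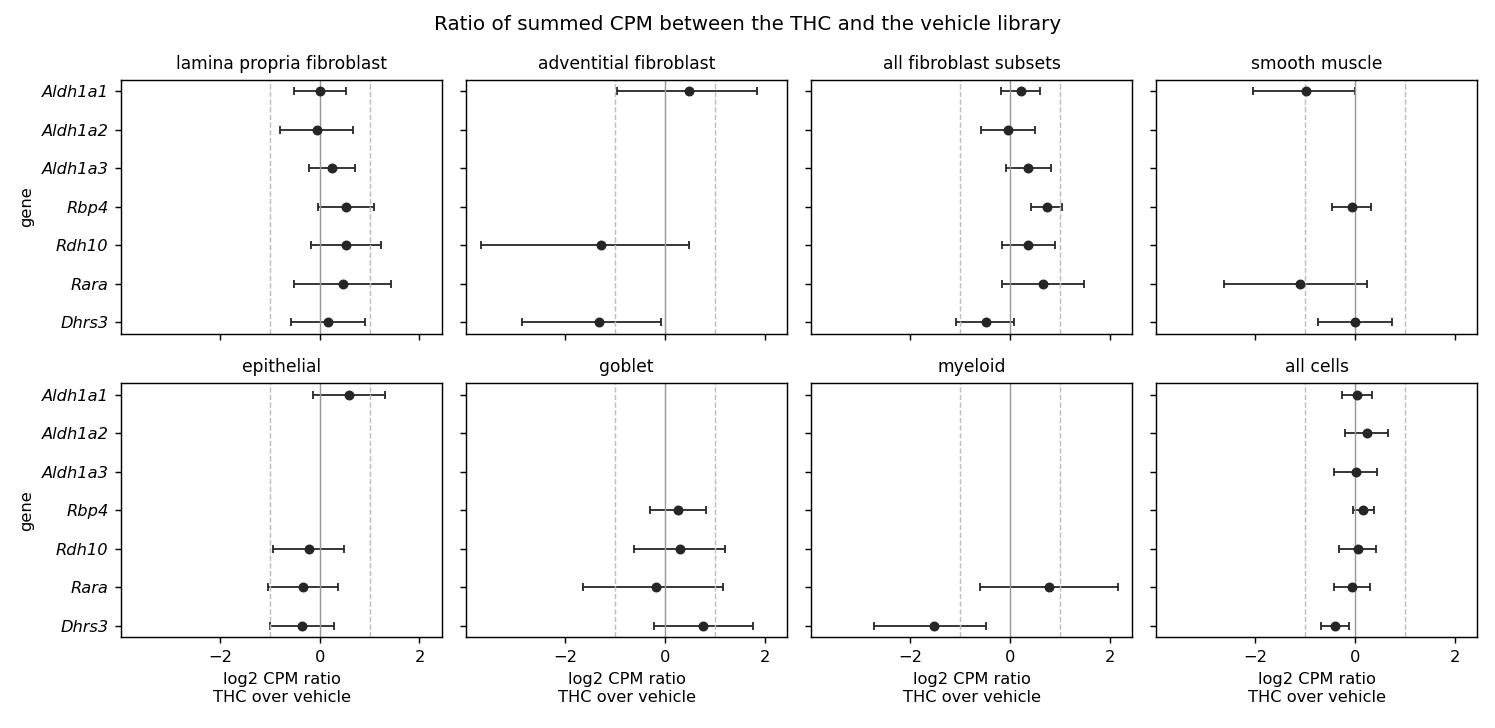
Log2 ratio of summed CPM, THC over vehicle, for each member with at least 20 UMIs in a class; points are the ratios, bars exact conditional Poisson 95% intervals and dashed lines 2-fold. Most points lie between the dashed lines, and Dhrs3 lies left of them in the adventitial-like and myeloid-like panels, at -1.32 and -1.52.

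The other genes of the pathway were taken from 5 lists of 63 genes, of which 62 were in the files. Among genes of uptake, transport and storage, Ces1d, a carboxylesterase that can free retinol from its esters, had the most UMIs and was highest in lamina propria-like fibroblasts, at 1231 CPM in THC and 1518 CPM in vehicle cells. Ces1d led the lamina propria-like sub-cluster of 10 THC and 12 vehicle cells that met the fewest markers, and its level was not split by sub-cluster. Rbp7 was highest in lymphatic endothelial-like cells, at 297 CPM in THC and 164 CPM in vehicle cells. Of 9 such genes measured over all cells, 0 were 2-fold higher and 0 lower in THC, where 1.48% and 2.54% of all genes were. In myeloid-like cells 2 of 3 measured genes were higher, namely Lpl, a lipase, with 25 UMIs in 3 of 23 THC cells and 0 in 52 vehicle cells, and the fatty acid receptor gene Cd36, at 267 CPM in THC and 119 CPM in vehicle cells, where 3.9% of genes were higher. Lpl was itself highest in lamina propria-like fibroblasts, at 434 CPM in THC and 342 CPM in vehicle cells, and 15 of the 25 myeloid-like THC UMIs came from 1 cell. In the Car1-led epithelial-like cluster, which had Aldh1a1 higher in THC, 3 of 6 measured genes were higher and 1 lower, where 2.88% of genes were higher and 3.14% lower. Those higher were Scarb1, a lipoprotein and carotenoid receptor gene (17 UMIs in THC, 3 in vehicle cells), Lpl (16 and 5) and Lrat, whose enzyme stores retinol as esters (15 and 7), and the lower one was Stra6l (7 and 14). The counting intervals of the Lrat and Stra6l ratios held 0. Lpl in all epithelial-like cells (29 UMIs in THC, 12 in vehicle cells) and Scarb1 in goblet-like cells (12 and 8) were also past 2-fold, where 1.41% and 2.06% of genes were higher.

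Among genes of carotene cleavage and retinol oxidation, Adh1, an alcohol dehydrogenase that also oxidises retinol, had the most UMIs, with 949 in THC and 1169 in vehicle cells. It was highest in epithelial-like cells, at 456 CPM in THC and 552 CPM in vehicle cells. In the Car1-led cluster, where Aldh1a1 was higher in THC, Adh1 was lower, at 112 CPM in THC and 347 CPM in vehicle cells, a log2 ratio of -1.63 (-2.01 to -1.26), where 3.14% of genes were lower. It was the only 1 of 7 genes of its list past 2-fold in that cluster. Adh1 was also among the leading genes of the Krt36-led cluster, in which Aldh1a1 had 1 UMI in each library. Whether the Car1-led cluster held a different share of cells of that kind in each library was not tested. Akr1b8 was highest in telocyte-like fibroblasts, at 234 CPM in THC and 144 CPM in vehicle cells. Of 12 genes of this list measured over all cells, 1 was 2-fold higher in THC, namely Rdh16 with 27 UMIs in THC and 15 in vehicle cells, and 0 were lower. All 27 THC and 14 of the 15 vehicle UMIs were in epithelial-like cells, which were 21.5% of THC and 16.2% of vehicle cells, and there Rdh16 was within 2-fold, at 16.0 CPM in THC and 8.60 CPM in vehicle cells. Dhrs7, a dehydrogenase of the same family as Dhrs3, had 2 UMIs in THC and 25 in vehicle adventitial-like fibroblasts, at -2.34 (-5.47 to -0.34).

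Of the 4 genes of retinoic acid breakdown, Cyp26a1 and Cyp26c1 had 0 UMIs in both libraries. Cyp2s1 had the most, 81 UMIs in THC and 65 in vehicle cells, and over all cells it was within 2-fold. With mesothelial-like cells counted as fibroblast-like its log2 ratio was 1.97, and the fibroblast subsets alone had too few UMIs of it. Of the 2 genes measured over all cells, 0 were higher and 1, Cyp26b1, was lower in THC, where 1.48% and 2.54% of all genes were. Cyp26b1, a retinoic acid hydroxylase, had 4 UMIs in THC and 20 in vehicle cells, a log2 ratio of -1.96 (-3.97 to -0.38). The 4 THC blood endothelial-like cells had 0 UMIs of it (0 to 187 CPM). Of the 20 vehicle UMIs, 16 (371 CPM) lay in 4 of 7 blood endothelial-like cells, 9 of them in 1 cell. The class was too small in both libraries for a ratio.

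Rarb, a receptor gene known as a direct target of retinoic acid, had 9 UMIs in 8 THC cells and 38 UMIs in 28 vehicle cells. Its log2 ratio over all cells was -1.72 (-2.95 to -0.64), the only 1 of 11 receptor and cofactor genes past 2-fold. Smooth muscle-like cells had 1 Rarb UMI in THC and 14 in vehicle cells, lymphatic endothelial-like cells 2 and 10, and lamina propria-like fibroblasts 4 and 11. Of the 14 retinoic acid responsive genes measured over all cells, 0 were higher and 2 were lower in THC, Rarb and Cyp26b1, where 1.48% of all genes were higher and 2.54% lower. Their median log2 ratio was -0.01, against -0.02 over all genes. In lamina propria-like fibroblasts 1 of 7 such genes was 2-fold higher, Nr2f1, a nuclear receptor gene, with 18 UMIs in THC and 9 in vehicle cells, at 1.60 (0.37 to 2.94), where 2.93% of genes were higher.

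Cd38, an ectoenzyme gene known to be induced by retinoic acid in human myeloid leukaemia cells, was past 2-fold in 3 classes and not in 1 direction. It was higher in THC fibroblast-like cells (18 UMIs in THC, 13 in vehicle cells; log2 ratio 1.19, 0.08 to 2.34), where 2.01% of genes were higher. All 18 THC and 10 of the 13 vehicle UMIs were in telocyte-like cells, of which there were 13 in THC and 20 in vehicle, too few for a ratio of their own. It was lower in THC myeloid-like cells (4 and 26; -1.77, -3.75 to -0.25) and in B-like cells (6 and 25; -1.05, -2.63 to 0.27), where 6.35% of genes were lower. The difference between these classes was not tested. Of the most abundant responsive genes, Rarres2 stood at 1424 CPM in THC and 1327 CPM in vehicle lamina propria-like fibroblasts, and Tgm2 at 530 CPM and 643 CPM in lymphatic endothelial-like cells. Others past 2-fold were Itga4 in smooth muscle-like cells (7 UMIs in THC, 20 in vehicle cells) and Meis1 in adventitial-like fibroblasts (4 and 20).

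Nrip1, a receptor cofactor gene, was lower in T-like cells of the THC library, at 134 CPM, against 379 CPM in those of the vehicle library (-1.51, -2.54 to -0.57), where 5.54% of genes were lower. Fabp5, a fatty acid-binding protein gene that can also carry retinoic acid, had 2 UMIs in THC and 26 in vehicle cells of the Krt36-led cluster, the vehicle UMIs in 3 cells. It had 18 UMIs in THC and 8 in vehicle cells of the Car1-led cluster.

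A common retinoic acid response element is a direct repeat of a core of bases with a spacer of 5 bases. It was searched on either strand with each core being AGGTCA, or else AGTTCA, or else GGTTCA, or else GGGTCA. It was in 32 of 32851 RefSeq start windows of 300 bases (0.0974%), including that of Rarb, and in 0 of 13 windows of the 6 members with a window, Aldh1a1, Aldh1a2, Rbp4, Crabp1, Rara and Dhrs3. Aldh1a3, Crabp2 and Rdh10 had none in the table. The Rarb window is shown because Rarb was the receptor gene past 2-fold over all cells, and it is chr14:16575427-16575726 on the minus strand (GRCm38.p6), printed along the gene. Capitals mark the element, which begins at base 198 of the window and was the only match in it.
Rarb: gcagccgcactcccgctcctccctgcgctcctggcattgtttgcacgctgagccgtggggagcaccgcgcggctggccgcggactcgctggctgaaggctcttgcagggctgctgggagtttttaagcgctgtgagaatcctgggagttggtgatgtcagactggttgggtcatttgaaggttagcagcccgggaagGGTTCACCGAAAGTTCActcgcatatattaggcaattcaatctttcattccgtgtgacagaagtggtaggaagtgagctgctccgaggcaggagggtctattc
A match or its absence describes these letters in this window.

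Genes whose level followed a member most closely over 16 sums (8 classes in each library, log2 of CPM plus 10) were named by Pearson correlation, as a description with no test. The classes were lamina propria-like and adventitial-like fibroblasts and smooth muscle-like, epithelial-like, goblet-like, B-like, T-like and myeloid-like cells. Telocyte-like and mesothelial-like cells, which were high in some of Rbp4, Rdh10, Aldh1a1 and Aldh1a2, had too few cells and were left out. The sums share libraries and depth. Ereg followed Aldh1a1 (0.96), Ptgs2 followed Aldh1a2 (0.96), Fam198b followed Aldh1a3 (0.97) and Wsb1 followed Rdh10 (0.96). The closest genes to Rbp4, Dhrs3 and Rara were Enpp5 (0.93), Ifitm2 (0.87) and Lmbrd1 (0.85).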

How the data were processed

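The deposited matrices hold raw UMI counts per gene and barcode, which the authors made with Cell Ranger 3.0.2 per the file headers. Bcl2fastq and Seurat are named in the submitters' processing notes. Deposited feature and barcode tables give names, not measurements. No source used here states the genome build or annotation. Barcodes with at least 1000 UMIs, 200 genes and under 10% mitochondrial UMIs were kept, and Scrublet marked 1 THC and 2 vehicle barcodes as doublets, which were removed. Doublets may remain. With scanpy 1.11.5, counts were scaled to 10000 per cell, log-transformed and clustered without the members (2000 variable genes per library, 30 components, 15 neighbours, Leiden resolution 1). Clusters were named from 24 marker lists, and fibroblast-like cells were clustered again (500 genes, 10 components). The scoring and these last settings were chosen after seeing the data. A cluster of 27 cells and one of 13 cells stayed unnamed. Counts were summed per class and library, with exact Poisson intervals and exact conditional Poisson intervals for ratios (scipy 1.17.1). The ratio intervals were run on simulated Poisson counts. Those lack the clumping of UMIs in single cells, so the run cannot show how the intervals hold for these data. The 9 members, the lists and the naming rule were chosen with earlier results of these data known. Genes outside the members were named when past 2-fold in a class or among the 3 highest of their list, and Rbp7 and Akr1b8 were added after their values were seen. Some results that the rule covers are not reported here. Alternatives covered UMI and mitochondrial limits, thinning, resolution, doublets, per-cell means, the richest cells, TMM scaling (edgeR 4.0.16) and the UMI minimum.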

Additional observations from a re-analysis of the deposited data

How the results depend on the processing

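No paired analysis was possible because each group had 1 library. The count of members at least 2-fold apart in fibroblast-like cells was 0, and 1 with no minimum of UMIs, which admits Crabp1 and Crabp2. The count of members with their highest class CPM in fibroblast-like cells was 5, 3 with cells thinned to 1000 UMIs and 7 with no minimum of UMIs. The thinned count left out members that fell under 20 UMIs. Of the ratios past 2-fold, the alternatives were run on Dhrs3 in myeloid-like and adventitial-like cells and on Rarb and Cyp26b1 over all cells, and none of these 4 changed sign. In fibroblast-like cells, thinning moved Aldh1a1 to 0.84, Aldh1a3 to -0.25 and Rbp4 to 0.28, and counting the mesothelial-like cells as fibroblast-like, an alternative chosen after seeing the data, moved Aldh1a2 to 0.54. The alternatives for Dhrs3 outside fibroblasts, Rarb and Cyp26b1 were also chosen after seeing the data. Dhrs3 ranged from -2.22 to -1.35 in myeloid-like cells, from -1.66 to -1.02 in adventitial-like fibroblasts and from -0.46 to -0.29 in all cells, Rarb from -1.92 to -1.25 and Cyp26b1 from -1.98 to -1.80. The causes were not tested. Under 5% mitochondrial UMIs left too few myeloid-like cells for a value. Thinning to 1000 UMIs left too few UMIs for a value of Rarb, of Cyp26b1 and of Dhrs3 in myeloid-like and adventitial-like cells. Cyp26b1 also had too few without the richest cell of each library, and the clustering resolution cannot change an all-cell sum. The ranges of Rarb and Cyp26b1 therefore lack these checks. Depth limits the shares of cells: in lamina propria-like fibroblasts thinned to 1000 UMIs, Aldh1a1 was found in 18.6% of THC and 7.53% of vehicle cells, against 64.4% and 46.2% unthinned.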
